A study of Homo sapiens with 2 samples.

Results

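The genes described here move zinc, iron or copper across membranes, or store or sense iron, in CWR22rv1 cells, a human prostate cancer line. They were chosen by symbol as all SLC30A and SLC39A genes together with 14 named iron and copper genes, and 38 of the 19607 genes in the deposited table met this rule. RNA was sequenced from 1 library of Akt1/2 DKO cells, which carry CRISPR/Cas9 knockouts of both Akt1 and Akt2, and 1 library of control cells, whose genotype is given as wild type. No treatment, time or passage is stated for either library. Knockout cells were isolated as monoclonal lines after puromycin selection, and it is not stated which clone was sequenced or whether the control cells were cloned. A difference between a clone and its parent line therefore cannot be told apart from a difference due to the knockout, and no value below has a replicate check.

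Cells take up zinc into the cytosol through the ZIP proteins of the SLC39 family and remove it, or load it into vesicles, through the ZnT proteins of the SLC30 family. Normal prostate epithelium is known for holding much zinc, and prostate cancer cells for losing it. Iron enters bound to transferrin or through the carrier DMT1, is stored in ferritin, and leaves only through ferroportin. When iron is scarce, iron regulatory proteins bind RNA hairpins called iron-responsive elements, which blocks translation where the hairpin lies before the coding sequence and stabilises the message where it lies after it. Copper enters through CTR1 and is pumped onward by the ATPases ATP7A and ATP7B.

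The hairpins are shown because they mark iron genes that can also be controlled after transcription. Read counts do not measure a block of translation by a hairpin before the coding sequence, but they do reflect message stability. A search of GENCODE release 29 transcripts for an unpaired C, a stem of 5 base pairs closed by the loop CAGTGN (G-T pairs allowed), found a match in the first 300 bases of 3 of the 38 genes, against 0.249% of 19684 protein-coding genes. In each sequence of 27 bases the capitals mark the unpaired C and the loop. The 3 genes were FTH1, FTL and SLC40A1, all in the 5′ UTR within exon 1, and TFRC, the transferrin receptor, is added as a gene outside the set with 4 matches in its 3′ UTR, of which the one nearest to the coding sequence is given.
FTH1, chr11:61967575-61967601, minus strand of GRCh38: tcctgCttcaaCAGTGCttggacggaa
FTL, chr19:48965336-48965362, plus strand: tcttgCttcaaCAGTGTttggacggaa
SLC40A1, chr2:189580662-189580688, minus strand: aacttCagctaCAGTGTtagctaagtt
TFRC, chr3:196050980-196051006, minus strand: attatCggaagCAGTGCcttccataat
Anywhere in a transcript, 5 of the 38 genes matched, against 1.48% of all genes. The other matches lay in the 3′ UTRs of SLC39A9 and TF. A match is a description of the letters and not evidence of binding. The search required all 5 pairs, so a gene without a match, such as SLC11A2, can still hold an iron-responsive element.

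Reads per gene are the authors' estimated counts rounded to whole reads, with totals of 9970825 for control and 10718654 for Akt1/2 DKO. Paired values are given with control first throughout. A fold compares Akt1/2 DKO against control after TMM scaling, which set the ratio of library sizes at 1.11. Levels are compared between genes in FPKM, fragments per unit of transcript length and of sequencing depth, as computed by the authors. The 95% exact interval of a fold reflects sampling of reads and nothing else. The targeted genes were lower in the library labelled as knockout, with AKT1 at 2645 and 591 reads and AKT2 at 2362 and 667. The luminal prostate markers HOXB13, FOXA1, KRT8, KRT18 and EPCAM were present, from 11.9 to 629 FPKM, while the basal markers KRT5, KRT14 and TP63 held 2 reads in control and 0 in Akt1/2 DKO.

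Of the 38 genes, 30 had at least 10 reads in both libraries together. Among them 7 (23.3%) were at least 1.5-fold apart, of which 2 were higher and 5 were lower in Akt1/2 DKO. Over all 13318 genes with that many reads, 30.9% were that far apart, 15.9% on the higher and 15.0% on the lower side. With 30 genes, the lower share among metal transport genes amounts to few genes and is not read as a trait of the set. With at least 100 reads the share was 5 of 27 genes (18.5%), against 23.2% of all such genes. All 7 also had an interval that left out no change, which held together with the fold for 27.0% of all genes. The median log2 fold change of the 30 genes was -0.06, beside 0.01 over all tested genes. The genes past 1.5-fold were SLC40A1, SLC39A8, TF, SLC39A13 and FTH1 on the lower side and SLC30A3 and STEAP3 on the higher side.

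**Figure D1:**
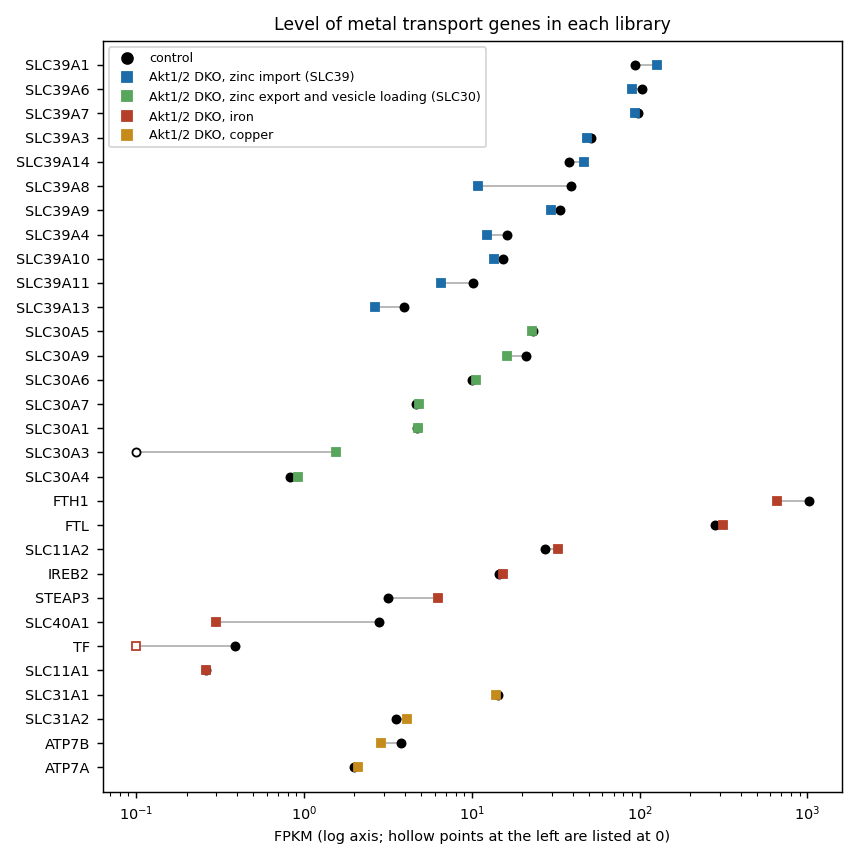
FPKM of the 30 metal transport genes with at least 10 reads in both libraries together, on a log axis, with black circles for the control library and coloured squares for the Akt1/2 DKO library. Most pairs nearly coincide, whereas SLC39A8 (38.7 to 10.9), SLC40A1 (2.81 to 0.30), STEAP3 (3.18 to 6.27) and FTH1 (1018 to 657) are apart, and SLC30A3 and TF are each listed at 0 in 1 library.

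Among genes with reads in both libraries, the widest separation was that of SLC40A1 (ENSG00000138449, chromosome 2 from 189560579 to 189583758), which encodes ferroportin, the iron exporter. It had 97 reads in control and 11 in Akt1/2 DKO, or 2.81 and 0.30 FPKM. The Akt1/2 DKO library was 9.78-fold lower, with a 95% interval from 5.23 to 20.2. Both levels were low beside those of FTH1, FTL and SLC11A2, and the 11 reads stand against a floor of 3.

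The ferritin chains lay on opposite sides of no change. FTH1, the heavy chain with ferroxidase activity, had 7943 reads in control and 5611 in Akt1/2 DKO and was 1.57-fold lower (95% interval 1.52 to 1.62). FTL, the light chain that helps form the iron core, had 2471 and 2971 reads, 1.08-fold higher with an interval of 1.03 to 1.14. The ratio of FTH1 to FTL in FPKM was 3.63 in control and 2.10 in Akt1/2 DKO. Taken on reads within each library, which needs no scaling, that ratio was 1.70-fold lower in Akt1/2 DKO (95% interval 1.60 to 1.81). GENCODE names 25 pseudogenes of FTH1 and 16 of FTL, none of which has a row in the deposited table. Reads can be shared with such copies, so both values are uncertain. The estimated counts of FTH1 were not whole (7942.95 and 5610.79), whereas those of FTL were. Exons of FTH1 also overlap 1267 bases of BEST1 on the opposite strand, which held 66 reads. The source of the fractions was not tested.

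Among the genes of iron uptake, the endosomal reductase was higher and the carrier close to level. STEAP3, which reduces iron in the endosome after transferrin uptake, had 117 reads in control and 226 in Akt1/2 DKO, 3.18 and 6.27 FPKM, 1.74-fold higher (95% interval 1.39 to 2.20). An antisense gene, STEAP3-AS1, overlaps 500 bases of its exons, and whether the counting used strand is not stated. SLC11A2, the DMT1 carrier that passes this iron to the cytosol, had 957 and 1198 reads, 1.13-fold higher with an interval of 1.04 to 1.23. IREB2, an iron regulatory protein, had 920 and 1033 reads, and its interval of 0.926 to 1.11 included no change. SLC11A1, the phagosome carrier of macrophages, had 10 and 11 reads, too few to tell a difference at this depth. CYBRD1, an iron reductase of the gut surface, had 0 and 2 reads and HEPH, a copper-dependent iron oxidase, had 0 and 1.

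TF, the plasma iron carrier transferrin, which is made mainly by liver, had 10 reads in control and 0 in Akt1/2 DKO. Against a floor of 3 reads it was at least 3.70-fold lower, and the 95% interval of the reads as counted reached down to 2.49-fold. TF lies on chromosome 3 from 133745956 to 133796640, and the 666 genes of chromosome 3 with at least 50 reads had a median log2 fold change of -0.53. Its exons also overlap 112 bases of SRPRB, which held 2893 reads. Of the 3 hepatocyte markers, ALB, serum albumin, was lower too, with 1244 reads in control and 120 in Akt1/2 DKO. APOA1 had 6 and 0 reads, under the read minimum, and HAMP had 0 in both. Their part in the value of TF was not tested. Markers of other cell types were summed in the same way. The 6 fibroblast markers COL1A1, COL1A2, COL3A1, DCN, LUM and VIM held 1035 reads in control and 237 in Akt1/2 DKO, of which VIM held 897 and 84. The rest did not move together. COL3A1 had 74 and 9 reads, whereas COL1A1 had 55 and 106 and LUM had 5 and 35. COL1A2 and DCN had few reads in either library. The leukocyte markers PTPRC, CD68 and CD163 held 51 and 70 reads, nearly all of CD68. Of the erythroid markers, HBB was at 0 in both libraries and HBA1 held 1056 and 3351 reads, which near-identical copies can share. The part of these markers in the iron values was not tested.

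Among the SLC39 importers, 11 of 14 genes passed the minimum of 10 reads. Of these, 2 (18.2%) were at least 1.5-fold lower, near the 15.0% of all genes, and 0 were higher in Akt1/2 DKO. The family median log2 fold change was -0.16, with 9 of the 11 values below 0, beside 6567 of the 13318 over all tested genes. SLC39A8 (ENSG00000138821, chromosome 4 from 102251041 to 102431258) encodes ZIP8, an importer of zinc, manganese and other divalent metals. It had 1249 reads in control and 375 in Akt1/2 DKO, 38.7 and 10.9 FPKM, and was 3.69-fold lower (95% interval 3.29 to 4.16). SLC39A14, its close relative ZIP14, which carries zinc, manganese and iron not bound to transferrin, lay on the other side of no change. SLC39A14 had 1497 reads in control and 2253 in Akt1/2 DKO, 1.36-fold higher with an interval of 1.27 to 1.45. These relatives stood at nearly the same level in control, 38.7 and 37.8 FPKM, and at 10.9 and 46.7 FPKM in Akt1/2 DKO. Within a library the ratio of SLC39A8 to SLC39A14 reads was 5.01-fold lower in Akt1/2 DKO (95% interval 4.38 to 5.74). SLC39A8 ranked 5 in the family by FPKM in control and 9 in Akt1/2 DKO, and held 7.72% and 2.27% of the family's summed FPKM.

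SLC39A13, or ZIP13, which releases zinc from vesicles of the secretory pathway, was the lowest of the 11 in FPKM in both libraries. It had 93 and 57 reads and was 1.81-fold lower (95% interval 1.29 to 2.56). With the authors' FPKM, 3.97 and 2.65, its log2 ratio was -0.58 and just short of the 1.5-fold limit. SLC39A11, a ZIP of the Golgi, had 183 and 143 reads, 1.42-fold lower with an interval of 1.13 to 1.78. On the FPKM scale, 10.1 and 6.52, its log2 ratio of -0.63 passed 1.5-fold. Both genes thus lie at the limit and their calls depend on the measure used.

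The most abundant importers in control were SLC39A6 at 103 FPKM, SLC39A7 at 98.0 FPKM and SLC39A1 at 94.3 FPKM. In Akt1/2 DKO the order was SLC39A1 at 128 FPKM, SLC39A7 at 93.4 and SLC39A6 at 89.6. SLC39A1, or ZIP1, the main zinc importer described in prostate epithelium, had 1963 and 2877 reads and was 1.32-fold higher (95% interval 1.25 to 1.40). Its exons overlap 2061 bases of the protein-coding gene AL358472.7 on the same strand, which has no row in the deposited table. SLC39A6, the oestrogen-regulated LIV-1, had 2783 and 2762 reads, 1.12-fold lower with an interval of 1.06 to 1.18. SLC39A7, which releases zinc from the endoplasmic reticulum, had 2213 and 2241 reads and was 1.09-fold lower (1.03 to 1.16). SLC39A4, the importer of the gut, had 354 and 292 reads and was 1.34-fold lower (1.15 to 1.57), and SLC39A10, a plasma membrane importer, had 817 and 749 and was 1.21-fold lower (1.09 to 1.34). For SLC39A3 (713 and 740 reads) and SLC39A9 (1162 and 1204 reads) the interval included no change. SLC39A2 had 0 and 2 reads, SLC39A5 had 0 and 1, and SLC39A12 had none. Summed over the family, FPKM was 502 in control and 482 in Akt1/2 DKO, of which SLC39A1 held 18.8% and 26.5% and SLC39A14 held 7.54% and 9.70%.

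**Figure D2:**
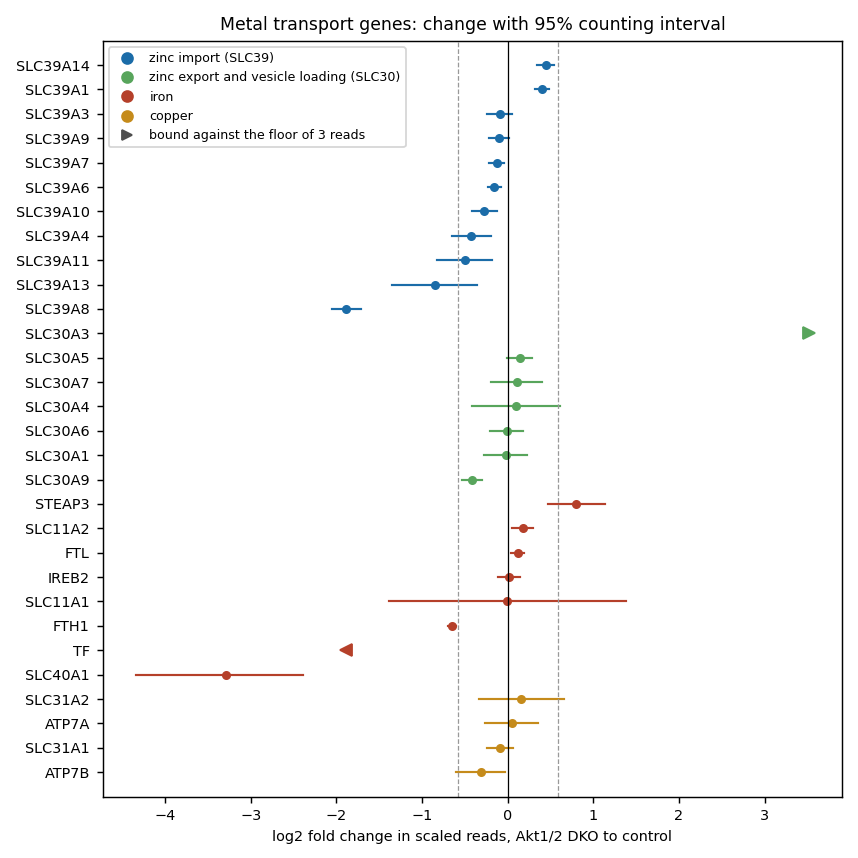
Log2 fold change of TMM-scaled reads, Akt1/2 DKO to control, for the 30 metal transport genes with at least 10 reads, with 95% exact counting intervals as lines, dashed lines at 1.5-fold and triangles for genes with 0 reads in 1 library, plotted at their bound. SLC40A1 at -3.29 is the lowest, SLC39A8 at -1.88 and the bound of TF at -1.89 lie level with each other, the bound of SLC30A3 at 3.51 is the highest, and the 4 copper genes lie inside the dashed lines.

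Of the SLC30 family, 7 of 10 genes had at least 10 reads, and SLC30A3 alone passed 1.5-fold, or 14.3% beside 30.9% of all genes. SLC30A3 (chromosome 2 from 27253684 to 27275817) encodes ZnT3, which fills synaptic vesicles of neurons with zinc. It had 0 reads in control and 38 in Akt1/2 DKO, or 0 and 1.56 FPKM, at least 11.4-fold higher against the floor of 3 reads, with 8.85-fold as the lower end of the 95% interval of the reads as counted. The zinc transporters of other tissues were not detected or nearly so. SLC30A8, of the insulin granule, had none, SLC30A2, of the mammary gland, had 3 and 0 reads, and SLC30A10, a manganese exporter, had 0 and 1.

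Of the other 6 SLC30 genes with at least 10 reads, 5 had an interval that included no change. SLC30A1, the plasma membrane exporter that zinc itself induces, had 258 and 281 reads and a fold of 0.982 (95% interval 0.827 to 1.17). SLC30A5 and SLC30A6, which form a pair that loads the early secretory pathway, had 683 and 833 reads and 409 and 449 reads, and the intervals of both included no change. The same held for SLC30A7, also of the secretory pathway, with 173 and 206 reads, and for SLC30A4, of endosomes, with 60 and 71. SLC30A9, which carries zinc out of mitochondria, had 1307 and 1086 reads and was 1.33-fold lower with an interval of 1.23 to 1.45. Level order put SLC30A5 at the top in both libraries, at 23.1 and 22.9 FPKM, and SLC30A9 next at 20.9 and 16.2 FPKM.

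All 4 copper genes passed the read minimum, and 0 of them were 1.5-fold apart, beside 30.9% of all genes. SLC31A1, the importer CTR1, was the most abundant at 14.3 FPKM in control and 13.9 in Akt1/2 DKO, with 681 and 710 reads, and its interval of 0.845 to 1.05 included no change. SLC31A2, its endosomal relative, had 64 and 79 reads and an interval of 0.791 to 1.57, and 1579 bases of its exons overlap FKBP15 on the opposite strand. ATP7A, the ATPase that delivers copper to secreted enzymes, had 168 and 192 reads with an interval of 0.834 to 1.28. Its exons overlap 97 bases of PGK1 on the same strand, which held 10848 reads. ATP7B, the ATPase of copper excretion, had 218 and 194 reads and was 1.25-fold lower (1.02 to 1.52).

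The wider pathways were described with 54 related genes, 40 of them with at least 10 reads. Of these, 15 passed 1.5-fold, with 5 higher and 10 lower, or 37.5% beside the 30.9% of all genes. In the zinc list 5 of 7 (71.4%) were lower and 0 higher, beside 15.0% lower and 15.9% higher over all genes. All 5 were metallothioneins, small proteins that bind zinc and copper. They belong to the same family and all lie on chromosome 16, so they do not stand for separate parts of the zinc list. Whether they share reads was not tested. MT1E had 591 and 20 reads and was 32.8-fold lower (95% interval 21.0 to 54.0), MT1G had 148 and 14, MT1X had 234 and 51 and MT2A had 543 and 323. MT1F, with few reads, had 14 and 2. MTF1, the zinc-sensing factor that drives metallothioneins and SLC30A1, had 389 and 455 reads with an interval of 0.919 to 1.21.

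In the iron list 8 of 21 genes (38.1%) passed 1.5-fold, 3 higher and 5 lower, near the 30.9% of all genes. STEAP2 and STEAP1, prostate-rich relatives of STEAP3, lay on the opposite side of no change from it. STEAP2 had 1482 and 353 reads, 4.65-fold lower (4.14 to 5.24), and STEAP1 had 899 and 324, 3.08-fold lower (2.71 to 3.50). ACO1, the other iron regulatory protein, had 339 and 238 reads and was 1.58-fold lower (1.33 to 1.87), in contrast to IREB2. MELTF, a surface iron-binding protein, had 142 and 77 reads and was 2.04-fold lower, and it lies on chromosome 3. SLC25A37, the mitochondrial iron importer mitoferrin-1, had 931 and 1683 reads and was 1.63-fold higher (1.5 to 1.77). With under 100 reads, CP, a plasma copper protein that oxidises iron, was lower (12 and 0 reads) and also lies on chromosome 3, and BMP6, a signal for hepcidin, and FLVCR2, a haem and choline carrier, were higher (0 and 87, and 14 and 38 reads). TFRC, which lies on chromosome 3 as well, had 4515 and 4959 reads and an interval of 0.951 to 1.03. Whether the chromosome has a part in the values of MELTF, CP and TFRC was not tested. NCOA4, the receptor that sends ferritin to lysosomes, had 1902 and 1520 reads, 1.39-fold lower with an interval of 1.30 to 1.49.

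In the copper list 2 of 12 genes (16.7%) passed 1.5-fold, both higher, beside 30.9% of all genes. COX11, an assembly factor that brings copper to cytochrome c oxidase, had 50 and 108 reads and was 1.95-fold higher (1.38 to 2.78). CCS, the copper chaperone of SOD1, had 109 and 186 reads and was 1.54-fold higher (1.21 to 1.97). SOD1 itself had 2181 and 2248 reads, 1.08-fold lower with an interval of 1.01 to 1.14.

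**Figure D3:**
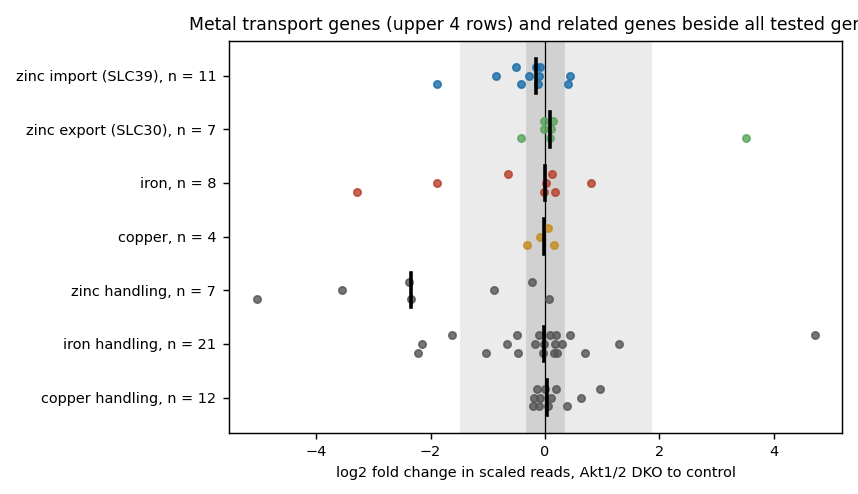
Log2 fold change of TMM-scaled reads, Akt1/2 DKO to control, for each tested metal transport gene by role (coloured points) and for the related zinc, iron and copper genes (grey points), with black bars at each list's median, grey bands for the central 50% and 90% of all 13318 tested genes and a thin line at their median. The related zinc genes have a median of -2.35, while the medians of the other lists lie between -0.16 and 0.09.

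The stretches of 250 bases before the RefSeq start (GRCh38.p14) are shown for the 3 metal transport genes with the widest separation among those with more than 10 reads, to show what lies before their starts. Where RefSeq lists several starts, the one farthest upstream is given. Capitals mark matches, on either strand, to the core of the metal response element that MTF1 binds (TGCACNC or TGCGCNC), the forkhead motif GTAAACA or the antioxidant element TGACNNNGC.
SLC40A1, chr2:189580787-189581036, minus strand: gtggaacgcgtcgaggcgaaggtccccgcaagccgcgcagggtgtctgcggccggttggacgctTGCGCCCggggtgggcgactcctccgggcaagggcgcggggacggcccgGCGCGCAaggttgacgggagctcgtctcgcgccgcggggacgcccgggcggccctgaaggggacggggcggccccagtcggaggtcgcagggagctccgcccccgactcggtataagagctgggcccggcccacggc
SLC39A8, chr4:102345483-102345732, minus strand: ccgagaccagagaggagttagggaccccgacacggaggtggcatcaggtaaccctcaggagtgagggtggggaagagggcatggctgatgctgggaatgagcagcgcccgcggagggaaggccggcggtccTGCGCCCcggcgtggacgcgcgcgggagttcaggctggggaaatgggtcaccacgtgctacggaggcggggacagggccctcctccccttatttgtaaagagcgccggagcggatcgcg
SLC30A3, chr2:27275347-27275596, minus strand: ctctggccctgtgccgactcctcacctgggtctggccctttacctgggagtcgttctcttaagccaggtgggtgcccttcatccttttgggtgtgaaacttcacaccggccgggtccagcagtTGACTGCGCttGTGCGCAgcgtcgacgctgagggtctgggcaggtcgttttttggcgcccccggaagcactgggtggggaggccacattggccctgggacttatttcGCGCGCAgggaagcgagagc
The stretch shown for SLC40A1 held 2 metal response cores, that for SLC39A8 held 1, and that for SLC30A3 held 2 with 1 antioxidant element and no shared bases. The other listed starts of SLC39A8 held 0 cores. The other start of SLC30A3 held 1 core and 0 antioxidant elements. The stretches of STEAP3, TF and SLC39A13, also past 1.5-fold, are not shown. That of STEAP3 held no match to any of these motifs. For TF, which had 10 reads, 1 start held 1 core and the other held 0. For SLC39A13, 1 start held 1 core and 1 antioxidant element, and the other held neither. Which start is used was not measured. Starts were listed for 33 of the 38 genes, in 52 stretches. The metal response core was present in 16 of the 52 (30.8%), against 24.8% of 35116 stretches of the same length over all genes. The antioxidant element was in 9 of 52 (17.3%), against 10.9%, and the forkhead motif in 1 of 52, that of SLC30A9, against 2.98%. These matches are descriptions of letters, and no binding was measured.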

How the data were processed

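RNA was sequenced from 1 Akt1/2 DKO and 1 control library. For each gene the authors' deposited table holds an estimated count, not normalized, and an FPKM value. Per the labels, the submitters' processing notes name fastp 0.20.0, TopHat, Cufflinks, edgeR and the build GRCh38.p10 without saying which made the counts, and strand use in counting is not given in the sources used here. The authors' own fold changes and p-values were not used. Estimated counts were rounded, genes with at least 10 reads in both libraries together were kept, and TMM factors (edgeR 4.0.16, R 4.3.3) were applied. Intervals are exact (Clopper-Pearson, 95%, scipy 1.17.1) given the sum of both libraries. A library under 3 reads, 0.301 CPM in control and 0.280 in Akt1/2 DKO, was set to 3. With 1 library per condition no p-value is given. The steps were run on simulated reads that held counting error only, with changes wider than 1.5-fold. That run could not test changes near the limit or the spread between replicates. Positions and transcripts come from GENCODE release 29 (GRCh38).

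The genes and lists were chosen with earlier results of these data known. Every gene of the set is named, with folds for those at least 1.5-fold apart. Related genes past 1.5-fold with at least 100 reads are named, and NCOA4, TFRC, MTF1, SOD1 and the genes under 100 reads were added after their values were seen. Alternatives were total count, DESeq2 1.42.0 and upper-quartile scaling, FPKM ratios, other read filters, a 2-fold limit and a prior count of 1. Values of some marker genes are not reported here.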

Additional observations from a re-analysis of the deposited data

How the results depend on the processing

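The number of metal transport genes past 1.5-fold was 7 under every scaling, with at least 1 read and with an interval required to leave out no change. It was 5 with FPKM, where SLC30A3 and TF have no ratio because 1 library is listed at 0, and 5 with at least 50 reads in both libraries together or 10 in each. Leaving out FTH1, chosen after seeing the data, gave 6. A 2-fold limit left 4, SLC40A1, SLC39A8, TF and SLC30A3. The median log2 fold change lay between -0.09 and -0.0047 under each alternative. Over the 30 genes, 145 of 148 alternative values stayed within the main counting interval and 0 of the calls turned direction. Much of this was fixed in advance. The scalings shift every gene by the same small amount, with library ratios from 1.07 to 1.11. The filter of at least 1 read still left out genes with 3 or fewer reads in each library, so it kept the same 30 genes. The intervals of TF and SLC30A3 are open at 1 end. The 3 that moved were FTH1 with upper-quartile scaling (-0.60) and SLC30A5 (-0.01) and SLC39A14 (0.30) with FPKM, and the cause was not tested. FPKM ended the call of SLC39A13 and added SLC39A11. The related genes past 1.5-fold numbered 12 to 15, and 10 were past 2-fold. Depth limits SLC11A1, TF and the 8 genes under 10 reads. No paired analysis was possible because only 1 library was sequenced per genotype.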

Other observations

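The nearest genes with at least 50 reads on each side were looked up for the 7 metal transport genes past 1.5-fold, after their values were seen. SLC40A1 lay between WDR75 and ASNSD1, 77.6 kb away, whose log2 fold changes were -0.0039 (956 and 1057 reads) and 0.16 (531 and 657 reads), with intervals that included no change for both. For SLC39A8 the sides differed. BANK1, a scaffold protein best known from B cells, had 66 reads in control and 15 in Akt1/2 DKO, a log2 fold change of -2.29 (95% interval -3.20 to -1.46), and NFKB1, the NF-kappa-B subunit p105, had 287 and 375 reads at 0.24. Beside SLC30A3, the pyrimidine synthesis gene CAD had 2213 and 3888 reads at 0.66 and MPV17 had 437 and 396 at -0.29. Both neighbours of TF were lower, TOPBP1 at -0.55 and RAB6B at -1.14, beside the chromosome 3 median of -0.53. STEAP3 had INSIG2 at 0.92 (32 and 67 reads) 1113 kb away and C2orf76 at -0.28 with an interval that included no change. The neighbours of FTH1, RAB3IL1 at 0.05 and INCENP at -0.11, had intervals that included no change, and those of SLC39A13 were MADD at 0.30 and PSMC3 at 0.09. Whether neighbouring genes share a cause was not tested.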
